A study of Mus musculus with 43 samples.

Results

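The genes described are 10 mouse genes tied to the secondary and tertiary granules of neutrophils and to neutrophil recruitment and extracellular traps: Ngp, Ltf, Camp, Lcn2, Chil3, Mmp8, Retnlg, Cd177, Ltb4r1 and Padi4. They were chosen by name, as the rows of the count and TPM tables whose gene identifier maps to one of these symbols, and all 10 were found among 56941 gene rows. The 43 libraries came from sorted marrow cells of mice that had or had not received whole marrow cells positive for JAK2V617F, an activating mutation of the JAK2 kinase found in myeloproliferative neoplasms. The donor cells carried the CD45.2 form of the leukocyte antigen CD45, and the recipients were wild-type, carried CD45.1 and had no conditioning.

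About 7 months after transplantation of 5000000 marrow cells, CD45.1 host cells (n = 7) and CD45.2 donor cells (n = 7) were sorted from the same 7 mice, and CD45.1 cells were sorted from wild-type mice without a transplant (n = 8). Cells negative for CD45 and for lineage markers, a sort meant to enrich stroma, came from transplanted mice (n = 7) and controls (n = 8). At 52 weeks, CD45.1 cells that also carried the myeloid integrin CD11b were taken from other mice, 3 transplanted and 3 control, all male; the number of cells transplanted there is not given in the sources used here. No group received normal marrow, so effects of the mutant cells and of transplantation itself cannot be told apart, and donor and control cells also differ in the CD45 form they carry. The donor library of mouse N204 is called donor in its title and recipient-derived in another field; it was kept with the donor libraries. Totals ran from 15.71 to 19.68 (in units of 1000000 counts) in the CD45.1 and CD45.2 libraries, from 32.48 to 44.85 in the CD11b libraries and from 41.21 to 143.23 in stroma. The smallest count of any of the 10 genes was 339 (Ltb4r1 in the stroma of transplanted mouse N032), and all 10 passed the filter on low counts in every comparison.

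Neutrophils build their granules in sequence as they mature in the marrow. Primary granules, with myeloperoxidase and serine proteases, form in promyelocytes, secondary (specific) granules form in myelocytes and metamyelocytes, and tertiary (gelatinase) granules form later. The transcription factor C/EBP-epsilon is required for the expression of many secondary granule genes. Among the contents of these granules, Ltf encodes lactoferrin, which binds iron, Lcn2 encodes lipocalin 2, which binds bacterial siderophores, and Camp encodes the precursor of the antimicrobial peptide cathelicidin. Ngp encodes neutrophilic granule protein, Mmp8 neutrophil collagenase, Chil3 the chitinase-like protein Ym1 and Retnlg a small secreted protein of the resistin family. Cd177 is a surface and granule membrane protein of neutrophils. Ltb4r1, the high-affinity receptor for the chemoattractant leukotriene B4, and Padi4, which converts arginine to citrulline on histones during the formation of extracellular traps, are not granule contents.

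Promoter sequences are shown as a description, and whether they bear on the levels of these genes was not tested. The 250 bases before each start were taken from RefSeq on the GRCm38.p6 build, where all 10 genes had an entry, while the counts were made on GRCm39. They were searched on both strands for TTGCNNAA, a C/EBP-type pattern, and for GAGGAAG, a PU.1-type pattern. TTGCNNAA occurred in 5 of the 10 promoters (Lcn2, Mmp8, Ngp, Ltf and Retnlg), against 9.56% of 32851 mouse promoters of the same length. GAGGAAG occurred in 3 of the 10 (Lcn2, Mmp8 and Ltb4r1), against 10.6% of all, and no match of one pattern overlapped a match of the other. These are matches of letters, not measured binding sites. The stretches printed are from 4 of the 5 promoters with a TTGCNNAA match, read along the gene's strand. Annotated exonic bases are left out, and the match on either strand is in capitals. The Lcn2 window starts within an annotated exon, so none of it is printed, although its matches of both patterns are counted above. A second Ngp match, 11 to 4 bases before the start, lies among the 61 bases left out there. They lie on the plus strand at chr9:110419597-110419746 (Ngp), chr9:111019121-111019270 (Ltf), chr9:7558279-7558428 (Mmp8) and chr16:48872362-48872607 (Retnlg). The printed match starts 138 bases before the RefSeq start in Ngp, 75 in Ltf, 19 in Mmp8 and 246 in Retnlg.
Ngp: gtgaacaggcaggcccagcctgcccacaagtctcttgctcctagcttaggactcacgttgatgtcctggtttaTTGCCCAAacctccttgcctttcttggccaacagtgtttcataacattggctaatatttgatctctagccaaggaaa
Ltf: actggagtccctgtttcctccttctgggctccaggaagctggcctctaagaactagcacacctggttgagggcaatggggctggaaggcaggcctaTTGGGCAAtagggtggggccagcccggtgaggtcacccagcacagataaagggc
Mmp8: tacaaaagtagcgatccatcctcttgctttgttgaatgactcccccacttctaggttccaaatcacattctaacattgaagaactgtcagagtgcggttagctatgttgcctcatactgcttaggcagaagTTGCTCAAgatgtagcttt
Retnlg: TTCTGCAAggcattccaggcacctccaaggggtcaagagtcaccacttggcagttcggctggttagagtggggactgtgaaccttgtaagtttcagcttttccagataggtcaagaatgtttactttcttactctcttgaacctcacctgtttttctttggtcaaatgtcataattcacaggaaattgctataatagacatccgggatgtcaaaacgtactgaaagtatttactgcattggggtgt

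Several of the genes were among the most abundant transcripts of the marrow. On the TPM scale, which corrects for transcript length, Ngp stood at 16974 ± 2630 in CD45.1 control cells (SD, n = 8), rank 3 of all genes. Camp followed at 8839 ± 1026, Retnlg at 6584 ± 1146, Lcn2 at 5929 ± 812, Ltf at 4225 ± 1073 and Chil3 at 2723 ± 346 TPM. The other 4 were lower, with Cd177 at 637 ± 136, Mmp8 at 430 ± 88.6, Padi4 at 176 ± 30.0 and Ltb4r1 at 155 ± 22.8 TPM. In control cells Ngp lay above Camp, Chil3 above Cd177 and Mmp8 above Padi4 with no overlap between libraries, and the ranges of all other neighbours in this order overlapped. Retnlg exceeded Lcn2 in 6 of 8 control libraries and in 3 of 7 host libraries, and Padi4 exceeded Ltb4r1 in 6 of 8 control libraries while Ltb4r1 exceeded Padi4 in 5 of 7 host and 5 of 7 donor libraries.

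Together the 10 genes took 3.36% ± 0.447 of all counts in CD45.1 control cells (SD, n = 8), 2.82% ± 0.794 in host cells (n = 7) and 3.15% ± 0.895 in donor cells (n = 7). They took 7.44% ± 0.31 in CD11b control cells (n = 3) and 6.66% ± 1.03 in CD11b cells of transplanted mice (n = 3). In stroma they took 1.01% ± 0.454 in controls (n = 8) and 1.1% ± 0.79 in transplanted mice (n = 7). For these shares of counts, the ranges of transplanted and control libraries overlapped in each sort. As shares of TPM, the CD11b libraries did not overlap, with 6.66% to 8.38% in transplanted mice and 8.48% to 8.79% in controls.

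**Figure D1:**
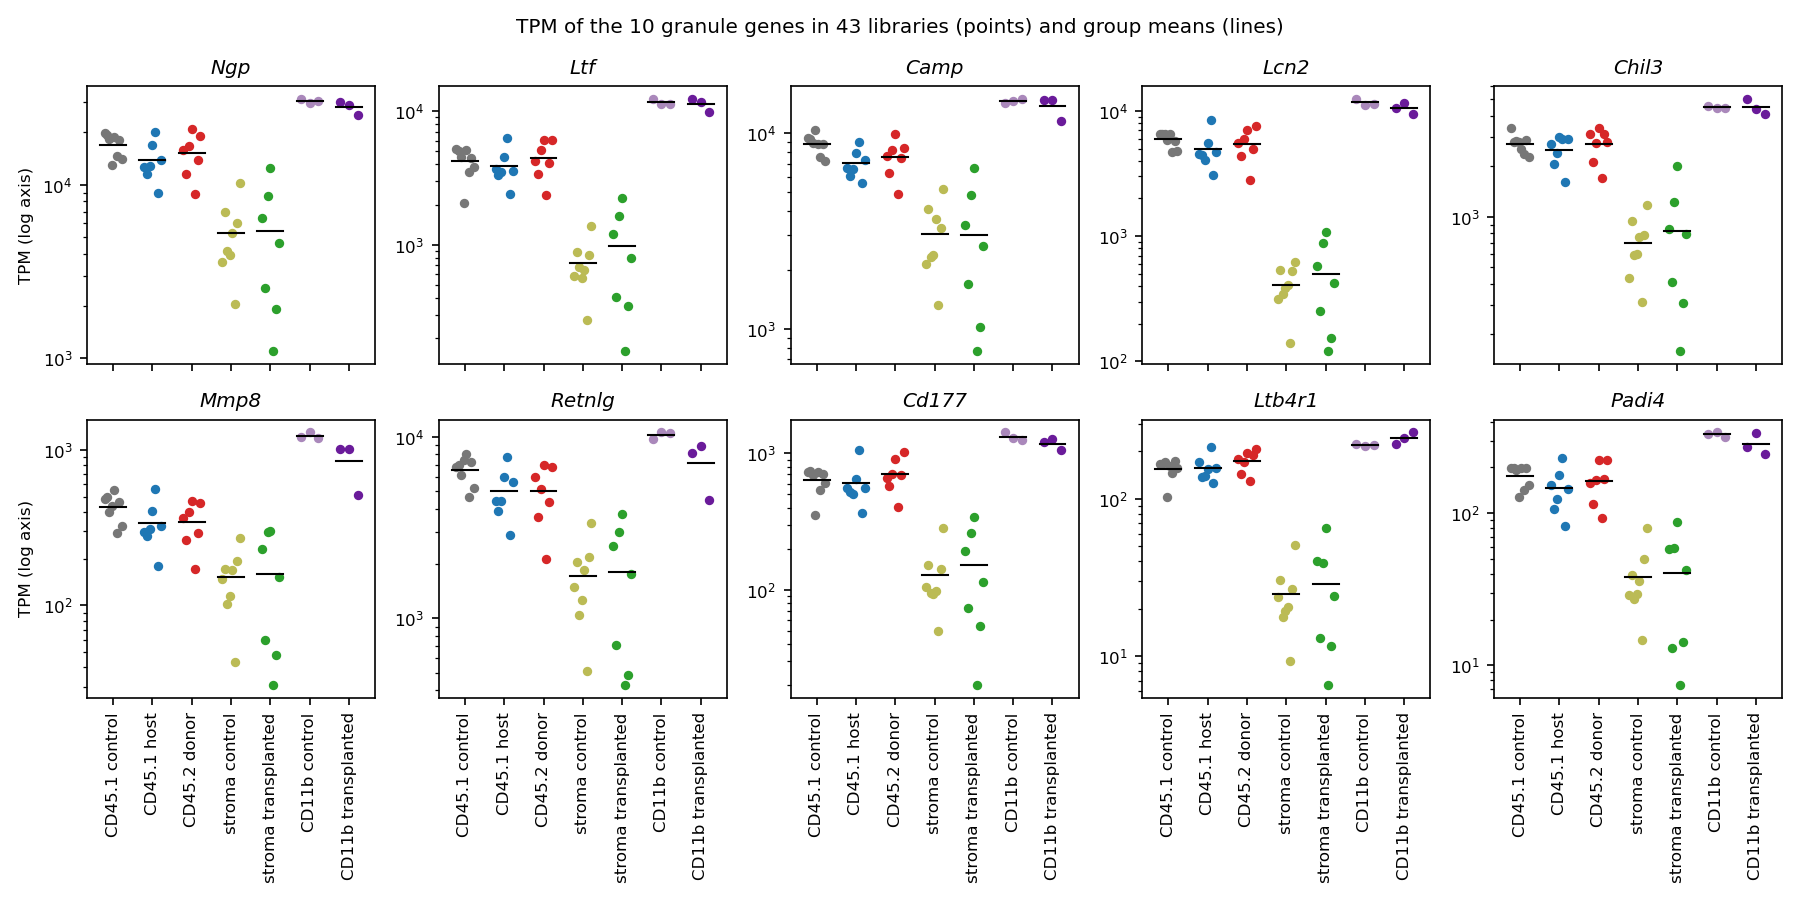
TPM (log axis) of the 10 genes in each of the 43 libraries, 1 panel per gene; points are libraries and black lines group means. For each gene the means of both CD11b groups lie highest and those of both stroma groups lowest, and the stroma of transplanted mice has the widest scatter.

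By group mean, CD11b cells stood highest and stroma lowest for each of the 10 genes. Every CD11b library exceeded every CD45.1 and CD45.2 library in TPM for 7 of the 10 genes, all but Mmp8, Cd177 and Retnlg. For Ltf the lowest CD11b library held 9807 TPM and the highest of the 22 CD45.1 and CD45.2 libraries 6258 TPM. The log2 ratio of mean TPM in CD11b control cells to that in CD45.1 control cells ran from 0.50 for Ltb4r1 to 1.51 for Mmp8, with a median of 0.87. Between control stroma and CD45.1 control cells it ran from -3.86 for Lcn2 to -1.50 for Mmp8, with a median of -2.08. Every CD45.1 and CD45.2 library exceeded every stroma library for Lcn2, Cd177 and Ltb4r1, while the 7 other genes overlapped. Ngp, for example, reached 12446 TPM in stroma and went down to 8777 TPM in the CD45.1 and CD45.2 libraries. The sorts differ in library kit, mice or sequencing, and these differences in level were not tested. How many of all genes separate the sorts in this way was not counted. The counts of separated genes thus stand without a share over all genes beside them.

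The first comparison asks whether wild-type host cells that shared their marrow with mutant cells differed in these genes from cells of mice without a transplant. All 10 genes had lower fitted levels in host cells, but 0 of the 10 passed the test (edgeR quasi-likelihood test, Benjamini-Hochberg adjusted p below 0.05 over all genes), where 16.4% of 14073 genes did. At an unadjusted p below 0.05, 1 of the 10 passed, Camp. The log2 fold changes ran from -0.41 to -0.01 with a median of -0.29, beside 0.01 over all genes. Levels below are CPM, counts scaled to a library total of 1000000 with TMM factors. In bulk samples, fewer cells of a type and less RNA per cell cannot be told apart.

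Camp, the cathelicidin precursor, ran from 2173 to 4153 CPM in host cells with a median of 2596, and from 2910 to 5195 in control cells with a median of 3852. Of the 7 host libraries 4 lay below all controls and none above. The log2 fold change was -0.39 ± 0.15 (SE) with an edgeR adjusted p of 0.0796. Retnlg ran from 777 to 2386 CPM in host cells (median 1229) and from 1128 to 2557 in controls (median 1943). Only 2 host libraries lay below all controls, and the log2 fold change was -0.41 ± 0.21 (edgeR adjusted p = 0.192). Mmp8, the collagenase, ran from 296 to 1080 CPM in host cells (median 504) and from 483 to 969 in controls (median 837). Its host libraries held both the lowest and the highest value, and the log2 fold change was -0.39 ± 0.22 (edgeR adjusted p = 0.233).

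Ngp ran from 6318 to 16527 CPM in host cells (median 8968) and from 10186 to 15202 in controls (median 13798), a log2 fold change of -0.33 ± 0.17 (edgeR adjusted p = 0.185). Lcn2, the siderophore binder, ran from 1526 to 4940 CPM in host cells (median 2322) and from 2328 to 3699 in controls (median 3484), a log2 fold change of -0.29 ± 0.19 (edgeR adjusted p = 0.322). For both genes 4 host libraries lay below all controls and 1 above all of them. Padi4 ran from 141 to 431 CPM in host cells (median 247) and from 233 to 350 in controls (median 336), a log2 fold change of -0.29 ± 0.17 (edgeR adjusted p = 0.245). The groups overlapped, with 3 host libraries below all controls and 1 above. Fitted log2 fold changes were smaller for Chil3 (-0.15 ± 0.14), Ltf (-0.11 ± 0.19), Cd177 (-0.10 ± 0.19) and Ltb4r1 (-0.01 ± 0.10), the last of which turned to 0.03 on the TPM scale. For 9 of the 10 genes 6 of 7 host libraries lay below the control median, and for Chil3 4 did.

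The host library of mouse N269 was the highest of the 7 for each of the 10 genes. Without it, the median was -0.47 and 6 of the 10 genes passed with lower levels in host cells, where 17.5% of all genes passed: Camp (log2 fold change -0.50, edgeR adjusted p = 0.0164), Lcn2 (-0.51, 0.0247), Mmp8 (-0.61, 0.029), Ngp (-0.48, 0.0297), Padi4 (-0.46, 0.0335) and Retnlg (-0.59, 0.0409). The other 4 stood at -0.33 (Cd177), -0.29 (Ltf), -0.22 (Chil3) and -0.13 (Ltb4r1) and did not pass. N269 had the lowest final chimerism of the 7 transplanted mice, 0.63, where the highest was 5.99 (no unit is given with these values). Its host library had the highest sum of 12 late neutrophil genes, 39119 CPM against a host median of 19414, the lowest sum of 8 B cell markers, 104 against 249, and the lowest sum of 8 macrophage markers, 161 against 214; their part in its granule gene levels was not tested. Without control N283, 1 gene passed, Camp (edgeR adjusted p = 0.0484), where 14.9% of all genes did. DESeq2 in place of edgeR also called 1 gene, Camp (adjusted p = 0.0372), where it called 20% of all genes. Leaving out any other single library gave 0 of 10. Host N005 was the lowest of the 7 host libraries for each of the 10 genes. Without it the median was -0.2, 9 genes lay below 0 and the lowest edgeR adjusted p was 0.159. N269 was singled out by its levels of these same genes, so the values without it are a description only.

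**Figure D2:**
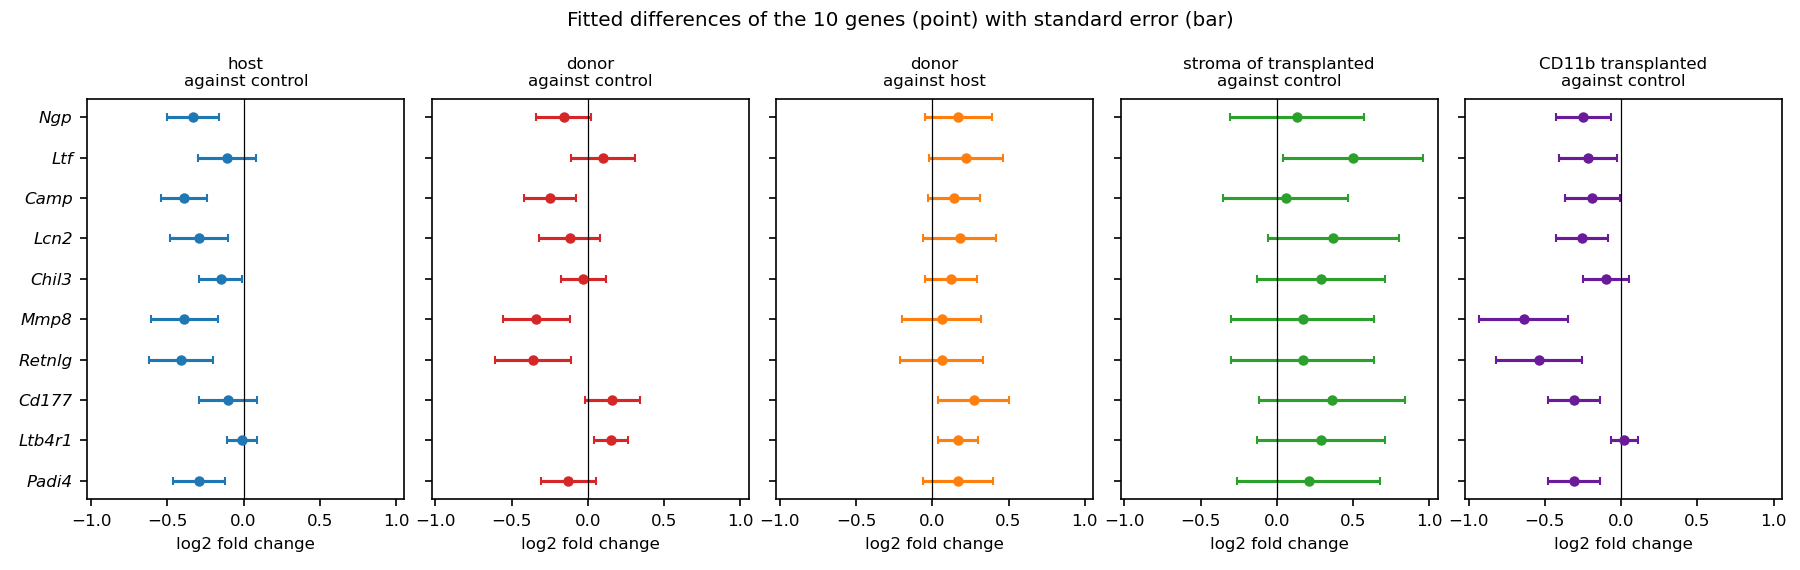
Fitted log2 fold change (point) and standard error (bar) of the 10 genes in 5 comparisons on 1 shared axis, donor against host without pairing by animal. All 10 points lie below 0 for host against control and above 0 for donor against host and for stroma, but in stroma 5 of the 10 turn below 0 under limma-voom and 7 under limma on log2(TPM + 1), and there the bars are widest.

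Other cell types in the same libraries moved. All 8 B cell markers fell in host cells, with sums of 104 to 425 CPM against 287.7 to 861 in controls. Of the monocyte markers 5 of 8 rose, with sums of 2435 to 2635 CPM against 1787 to 2224, and of the macrophage markers 6 of the 7 tested rose. Of the T and NK cell markers 1 of 8 rose and 1 fell, and of the erythroid markers 1 of 8 fell. Their part in the granule gene levels was not tested. Among neutrophil lists, and beside the 16.4% of all genes that passed, 3 of 9 primary granule genes rose in host cells: Ctsc, which activates the granule serine proteases (log2 fold change 0.56 ± 0.08), Prtn3, proteinase 3 (0.56 ± 0.11), and Ctsg, cathepsin G (0.42 ± 0.11). Of 12 late neutrophil genes 0 passed and 11 lay below 0; Csf3r, the receptor of granulocyte colony-stimulating factor, had the smallest p (-0.42 ± 0.17, edgeR adjusted p = 0.0977). Of 21 other genes of secondary and tertiary granules or secretory vesicles 18 lay below 0 and 1 fell, Arg2, which encodes arginase 2 (-0.52 ± 0.17, edgeR adjusted p = 0.0455). The median log2 fold change was 0.33 for the primary granule list, -0.32 for the late neutrophil list and -0.16 for the other late granule genes, and differences between lists were not tested. Lrp1, an endocytic receptor that binds lactoferrin, rose by 1.01 ± 0.19 on the log2 scale, while of the chitinase-like (4 tested), resistin (2), peptidylarginine deiminase (3) and leukotriene B4 (6) genes 0 passed.

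Donor cells were set against the same control libraries, so the host and donor comparisons share their controls. Here 0 of the 10 genes passed, where 45.7% of 13906 genes did; 0 had an unadjusted p below 0.05, and DESeq2 called 0. Of the 10 genes 7 lay below 0, with a median of -0.13 beside 0 over all genes. This median moved with single libraries: it was 0 with 5 genes below 0 without donor N005, -0.07 without donor N014, -0.24 without donor N269 and -0.25 without donor N203. Retnlg ran from 528 to 2250 CPM in donor cells with a median of 1504, beside a control median of 1943. Of the donor libraries 3 lay below all controls and none above, and the log2 fold change was -0.36 ± 0.25. Mmp8 stood at -0.34 ± 0.22 and Camp at -0.25 ± 0.17, and Ngp (-0.16 ± 0.18), Padi4 (-0.13 ± 0.18), Lcn2 (-0.12 ± 0.20) and Chil3 (-0.03 ± 0.15) were closer to 0; with the day of collection as a block Lcn2 and Chil3 turned to 0.10 and 0.13. The values above 0 were those of Cd177 (0.16 ± 0.18), Ltb4r1 (0.15 ± 0.11) and Ltf (0.10 ± 0.21).

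Of the transplanted mice 5 shared their day of collection with a control. With the day as a block, 2 of the 10 genes rose in donor cells, where 45.9% of all genes passed: Ltb4r1 (log2 fold change 0.22, edgeR adjusted p = 0.00794) and Cd177 (0.25, edgeR adjusted p = 0.045). Ltb4r1 was higher in the donor library than in that day's control in 5 of 5 pairs, by 0.09 to 0.36 on the log2 scale. Cd177 was higher in 4 of 5, with differences from -0.09 to 0.64. In host cells the same block gave 0 of 10, with a median of -0.07 in place of -0.29. With this block, mice without a partner of the other group on their day add nothing to the estimate. These were transplanted N005 and N032 and controls N288, N051 and N093. Over the 5 same-day pairs alone, the mean log2 difference of donor from control was 0.25 for Cd177 and 0.23 for Ltb4r1, near the values with the block. For the adjusted p, the effect of the block and that of the change in mice cannot be told apart here.

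The lists around the 10 genes are read beside the 45.7% of all genes that passed in donor cells. Beside it, 5 of 21 other late granule genes, 8 of 9 primary granule genes and 0 of 12 late neutrophil genes passed. In further lists 3 of 8 transcription factors, 1 of 3 deiminases, 1 of 6 leukotriene B4 genes and 2 of 4 chitinase-like genes passed. No list was tested against that share, and the lists were chosen with earlier results of these data known. Of the 9 primary granule genes 8 rose, among them Prtn3 (0.92 ± 0.11), Ctsg (0.75 ± 0.11), Ms4a3 (0.71 ± 0.12) and Ctsc (0.54 ± 0.09). Of 21 other late granule genes 4 fell, by 1.38 ± 0.23 on the log2 scale for Olfm4, a secondary granule protein, by 0.72 ± 0.21 for Fpr1, a receptor of formylated bacterial peptides, by 0.54 ± 0.20 for Arg2 and by 0.49 ± 0.15 for the metal transporter Slc11a1; 1 rose, Hp, haptoglobin (0.35 ± 0.13). Of the 4 chitinase-like genes Chil1 fell by 0.71 ± 0.23 and Chit1 by 0.70 ± 0.25, and of the 3 peptidylarginine deiminases Padi2 fell by 0.29 ± 0.12. Lta4h, which makes leukotriene B4, was the 1 of 6 leukotriene B4 genes to pass (0.26 ± 0.08). Of 8 granulocyte transcription factors 3 rose: Cebpe (0.28 ± 0.10), Cebpa (0.33 ± 0.08) and Gata1 (2.01 ± 0.27), which also acts in erythroid cells. Slc22a17, a receptor for lipocalin 2, fell by 0.98 ± 0.25, and 0 of 12 late neutrophil genes passed. In the same comparison all 8 B cell markers fell. Of 8 T and NK cell markers 7 fell and 1 rose, and of 8 erythroid markers 4 rose and 2 fell; their part in these values was not tested.

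Donor and host cells of the same mice were compared directly. Without pairing, 0 of the 10 genes passed, where 14.1% of 13662 genes did; 0 had an unadjusted p below 0.05, and DESeq2 called 0. All 10 fitted values were higher in donor cells, from 0.06 ± 0.26 for Mmp8 and 0.06 ± 0.27 for Retnlg, which turned to -0.03 on the TPM scale, to 0.27 ± 0.23 for Cd177. The median was 0.17, beside 0 over all genes. Without donor N203 it was 0.01 and 4 of the 10 genes lay below 0. It was 0.09 without host N005 and 0.11 without host N279, with 2 genes below 0 in each, and 0.27 without donor N005 and 0.30 without host N269; without donor N269 it was 0.12, with 2 below 0. With the animal as a block 2 of the 10 rose in donor cells, where 33.7% of all genes passed: Cd177 (log2 fold change 0.27, edgeR adjusted p = 0.0107) and Ltb4r1 (0.16, edgeR adjusted p = 0.0355). Within animals the log2 difference of Cd177 was -0.08 in N269, 0.07 in N005, 0.17 in N014, 0.28 in N204, 0.32 in N279, 0.53 in N032 and 0.63 in N203, so donor cells were higher in 6 of 7 mice. Ltb4r1 was higher in donor cells in 5 of 7, with a mean difference of 0.17 ± 0.19 (SD, n = 7), and Retnlg in 4 of 7, with 0 ± 0.31. Mice kept a similar order from gene to gene: N032 and N203 had the largest donor excess for all 10 genes, while in N269 donor cells were lower for all 10 and in N005 for 9.

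Levels differed between mice in the same direction for most of the 10 genes. Each gene's log2 CPM was set against its own median over the 22 CD45.1 and CD45.2 libraries. Mouse N005 had the lowest library of each kind, with a median deviation over the 10 genes of -0.91 in host and -1.01 in donor cells. Mouse N269 lay at 0.60 and 0.47, with all 10 genes above their medians in both, and mouse N014 at -0.43 and -0.37, with all 10 below in both. N032 lay at -0.39 in host and 0.06 in donor cells. Control mice ran from -0.31 (N002) to 0.31 (N277). The highest host library exceeded the lowest 1.91-fold for Camp and 3.65-fold for Mmp8, against 1.79-fold and 2.01-fold in controls.

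**Figure D3:**
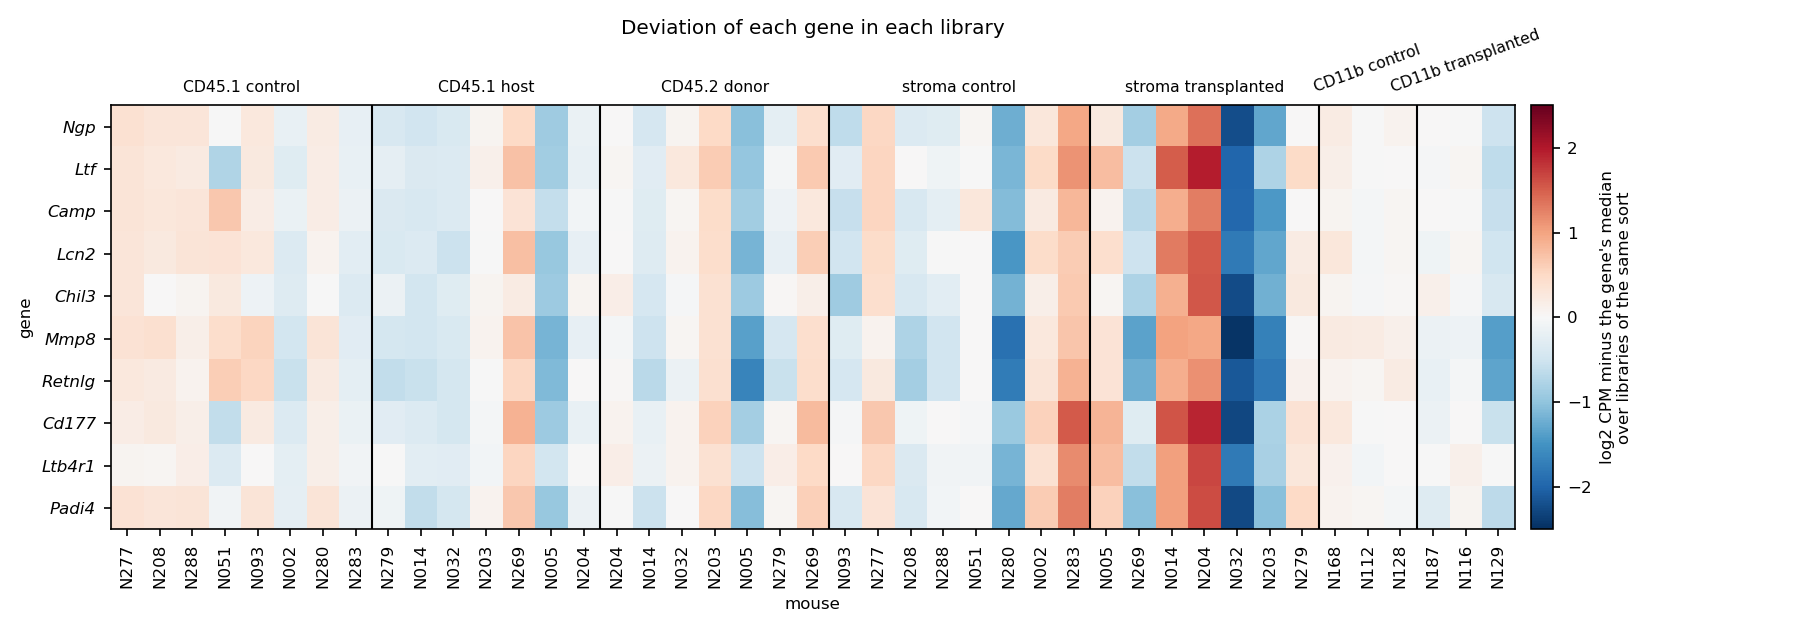
Log2 CPM of each gene (rows) in each library (columns, by mouse and sort), minus that gene's median over libraries of the same sort; red is above and blue below the median. All 10 genes lie below their medians in host and donor N005 and above them in host and donor N269, while in control N051 Ltf and Cd177 are low and Camp and Retnlg high.

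As a description, the Pearson correlation of log2 CPM over the 22 libraries ran from 0.64 (Camp and Ltb4r1) to 0.98 (Ltf and Cd177) among the 45 pairs of the 10 genes, with a median of 0.88, and of 0.90 after group means were removed. These libraries share scaling, and 7 mice gave both a host and a donor library. Control N051 departed from the common pattern: of the 8 controls it had the lowest Ltf (4055 CPM) and Cd177 (798 CPM) and the highest Camp (5195 CPM) and Retnlg (2557 CPM). Ngp followed the mean standardized level of the 10 genes most closely among them (0.987) and Ltb4r1 least (0.881). Among 10362 genes compared (mean log2 CPM from 2 upwards), the 4 other named genes that followed that mean most closely were R3hdm4 (0.985), Prr13 (0.98), Itgb2l (0.98) and Mindy1 (0.979).

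CD11b cells, which include neutrophils and monocytes, were compared between transplanted and control mice at 52 weeks. Of the 10 genes 0 passed, and 0% of 15257 genes did by edgeR (2506 genes had an unadjusted p below 0.05, none of the 10 among them; DESeq2 called 291 genes, none of the 10). Of the 10, 9 lay below 0, with a median of -0.26 beside 0.02 over all genes. With library totals alone the median was -0.16 beside 0.13 over all genes, and on log2(TPM + 1) -0.14 beside 0.09. Mmp8 stood at 2095, 2134 and 892 CPM in transplanted mice N187, N116 and N129, and at 2734, 2691 and 2542 CPM in controls N168, N112 and N128. All 3 transplanted libraries lay below all controls, N129 farthest, with a log2 fold change of -0.64 ± 0.29 (edgeR adjusted p = 0.309). Retnlg stood at 2997, 3283 and 1368 CPM in the same transplanted mice and at 3636, 3538 and 3947 CPM in the controls, again without overlap, with a log2 fold change of -0.54 ± 0.28 (edgeR adjusted p = 0.357). These were 2 of the 10 genes, where 24.1% of all genes had groups that did not overlap.

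Ngp stood at 26361, 25823 and 18333 CPM in transplanted N187, N116 and N129 and at 30112, 25855 and 27712 CPM in the controls, a log2 fold change of -0.25 ± 0.18. N129 was the lowest of the 6 libraries for each gene but Ltb4r1, whose levels were 231, 256 and 234 CPM in transplanted mice and 252, 224 and 235 CPM in controls (0.02 ± 0.09). N129 also held 350 counts of the T cell gene Cd3e, against 10 to 36 in the 5 other libraries, and its sum of 12 late neutrophil genes was 40037 CPM, against at least 68697 in the other transplanted mice. Between the groups, sums of 8 macrophage markers ran from 198.3 to 355.5 CPM in transplanted mice and from 167.5 to 175.1 in controls, and those of 10 primary granule genes from 7405 to 8948 and from 5932.5 to 6796. Sums of 8 T and NK cell markers ran from 103.2 to 161 and from 83.4 to 91.3 CPM, and those of 12 late neutrophil genes from 40037 to 71052 and from 73242.5 to 87680. None of these sums overlapped between the groups, while 0 genes of these lists passed. Sums of 22 other late granule genes did not overlap either (14594 to 20210 CPM, against 20478 to 23567 in controls). The same held for 8 monocyte markers (2473 to 2743 CPM, against 2294 to 2399). Sums of the B cell, erythroid, and eosinophil and basophil markers overlapped. Of all single genes, 24.1% had groups that did not overlap. The part of these lists in the granule gene levels was not tested. Without N129 the median of the 10 genes was -0.11, with Mmp8 at -0.33 and Retnlg at -0.24, Chil3 turned to 0.03, and 0 of the 10 passed. The transplant effect in CD11b cells was also tested against that in CD45.1 host cells: 0 of the 10 differed, where 0.109% of 15639 genes did, and 0 had an unadjusted p below 0.05, and DESeq2 called 0 of the 10. The differences ran from -0.28 ± 0.42 for Mmp8 to 0.16 ± 0.27 for Camp.

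In the stroma sort the 10 genes were present although cells positive for CD11b or Ly-6G/Ly-6C had been gated out. The 8 stroma markers summed to 5320 to 13629 CPM in control stroma, 1882 to 9443 CPM in the stroma of transplanted mice and 42.7 to 54.8 CPM in CD45.1 control cells. The 8 haematopoietic markers, which include the neutrophil genes S100a8, S100a9, Elane and Mpo, summed to 2469 to 9981 CPM in control stroma and 1623 to 15907 CPM in the stroma of transplanted mice, lowest in N280 and N032 and highest in N283 and N204. Transplanted N032 was the lowest of its group in the sums of the stroma, haematopoietic, B cell, macrophage and monocyte markers alike, and its TMM factor of 1.23 was the highest of the 15 stroma libraries. Ngp ran from 981 CPM in transplanted N032 to 11868 in N204 (median 4556), and from 1956 in control N280 to 8937 in N283 (median 4205). Ltf ran from 276 to 4239 CPM in transplanted mice (median 1507) and from 492 to 2372 in controls (median 1083). For all 10 genes transplanted libraries lay both below and above all controls.

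Between the stroma of transplanted and control mice 0 of the 10 genes passed, where 1.49% of 26191 genes did; 0 had an unadjusted p below 0.05, and DESeq2 called 0. The fitted values lay above 0, from 0.06 ± 0.41 for Camp to 0.50 ± 0.46 for Ltf with a median of 0.25 beside 0.04 over all genes, but 5 of the 10 lay below 0 with limma-voom and 7 with limma on log2(TPM + 1). Without transplanted N204 7 of the 10 lay below 0 and the median was -0.09, and without N014 5 did, with a median of 0. The median was 0.12 without control N280 and 0.15 without transplanted N005, and 0.39 to 0.41 without transplanted N203, N032 or N269 or control N283. With the day as a block it was 0.16 and 2 genes, Camp and Ngp, lay just below 0. Cd177 differed 18.2-fold between the highest and lowest transplanted library and Camp 9.49-fold, against 5.52-fold and 3.76-fold in controls. Over the 15 stroma libraries the correlations among the 45 gene pairs ran from 0.94 to 0.99. In the lists around these genes Slc22a17 fell (-1.26 ± 0.28, edgeR adjusted p = 0.0257), and 0 genes of the primary granule, other late granule, late neutrophil and transcription factor lists passed. In the same comparison 4 of 8 erythroid, 3 of 8 macrophage and 1 of 8 monocyte markers rose and 0 fell, while the other 4 erythroid and 2 of the macrophage markers lay below 0; their part was not tested.

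The transplant effect in stroma was tested against that in CD45.1 cells. Both sorts came from the same mice, and this fit treated libraries of 1 animal as independent. The difference ran from 0.32 ± 0.44 for Ltb4r1 to 0.67 ± 0.49 for Lcn2 with a median of 0.50, and 0 of the 10 passed, where 2.69% of 22991 genes did; 0 had an unadjusted p below 0.05, and DESeq2 called 0 of the 10. Effects were also compared between male and female mice. In host cells the male effect lay below the female effect for all 10 genes, with a median difference of -0.45 and the most negative value for Retnlg (-0.70 ± 0.40). The host libraries came from 4 male and 3 female mice, beside 4 and 4 in controls. The highest host library for all 10 genes, N269, was female and the lowest, N005, male. Single libraries were not left out of these fits. In stroma the median difference was -0.28, with standard errors of 0.85 to 0.99. In both, 0 of the 10 genes and 0% of all genes passed by edgeR (425 and 745 genes had an unadjusted p below 0.05, none of the 10 among them, and DESeq2 called 3 and 1 genes, none of the 10).

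Within each kind of cell the genes were fitted against the log2 of final chimerism of the 7 transplanted mice. In stroma all 10 slopes lay above 0, from 0.79 ± 0.23 per doubling for Ltb4r1 to 0.91 ± 0.27 for Ltf and 0.91 ± 0.28 for Cd177, with a median of 0.85 beside 0 over all genes. All 10 had an unadjusted p below 0.05, from 0.00666 for Lcn2 to 0.0244 for Mmp8, but 0 of the 10 passed after adjustment over 20516 genes (edgeR adjusted p = 1 for each; 0% of all genes passed and 680 had an unadjusted p below 0.05). DESeq2 called 10 genes, none of these, with a lowest adjusted p of 0.139 among them. The 10 slopes are not separate observations, since the genes varied together over the same 7 libraries. Ngp stood at 11868 CPM in N204 (chimerism 4.97), 8786 in N014 (5.99) and 5370 in N005 (3.09), at 981 in N032 (2.06) and 1850.5 in N203 (1.77), and at 4556 in N279 (0.7) and 2517 in N269 (0.63). The 3 mice with the highest chimerism were thus the 3 highest, but the 2 lowest libraries came from mice in the middle of the range. Without N204 the median slope was 1.6. The stroma slopes without each of the other mice are not given here, so this value does not show how far single mice move them.

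In host and donor cells the slopes lay below 0 for all 10 genes, with medians of -0.16 in both, from -0.22 (Padi4) to -0.07 (Chil3) in host cells and from -0.24 (Padi4) to -0.09 (Chil3) in donor cells. In host cells the median slope was -0.03 without N269, with 7 of the 10 below 0, -0.25 without N279 and -0.26 without N204. In donor cells it was -0.09 without N203, -0.27 without N279 and -0.48 without N204. In each 0 of the 10 and 0% of all genes passed by edgeR (538 of 12600 and 242 of 12189 genes had an unadjusted p below 0.05, none of the 10 among them, and DESeq2 called 2 and 0 genes, none of the 10). Set side by side, N005 was lowest in host and donor cells and lay 0.38 above the median in stroma, N269 was highest in host cells and lay at -0.73 in stroma, and N203 lay at 0.45 in donor cells and -1.25 in stroma. N204, highest in stroma at 1.54, lay at -0.15 in host and 0.02 in donor cells. Whether the levels in stroma and in CD45.1 or CD45.2 cells of a mouse are related was not tested.

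**Figure D4:**
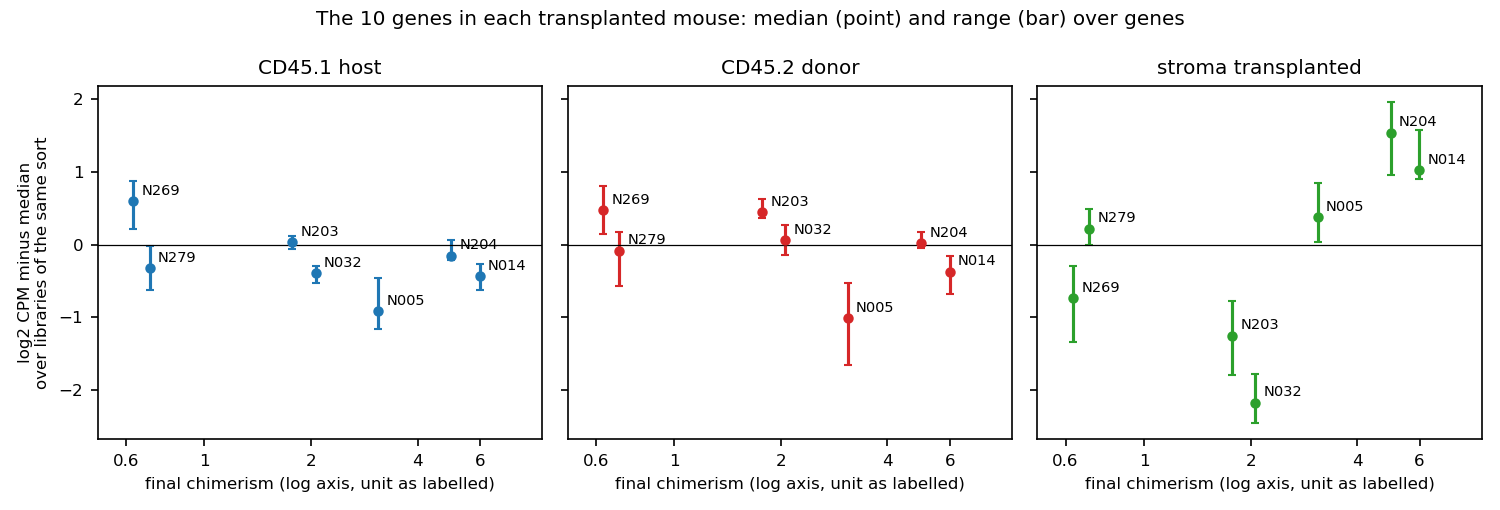
Deviation of log2 CPM from the median over libraries of the same sort against final chimerism (log axis, unit as labelled) in the 7 transplanted mice, 1 panel each for host cells, donor cells and stroma; points are medians and bars ranges over the 10 genes. N204 and N014 are highest in stroma at 1.54 and 1.02 and N032 lowest at -2.17, while N005 is lowest in host and donor cells.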

How the data were processed

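RNA sequencing libraries of sorted mouse marrow cells were analysed from 2 kinds of deposited table. The authors deposited raw counts per gene, made per the submitters' processing notes on GRCm39 with STAR 2.7.3a and featureCounts of Subread 1.6.2; RSEM 1.3.3 is also named for the CD11b libraries. The authors also deposited TPM values; the tool behind them is not given in the sources used here, nor is the strand setting of the counting. Reads of near-identical copies, such as those of Chil3 and its paralog Chil4, may be split between rows. Per the labels, the CD45.1 and CD45.2 libraries were stranded and poly-A selected, and the stroma libraries were made with a low-input kit and sequenced in repeat runs.

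Of 56941 identifiers 51948 matched a symbol. Counts were tested with edgeR 4.0.16 (R 4.3.3): filterByExpr, TMM scaling, quasi-likelihood test, sex as a covariate except in the all-male CD11b groups, and Benjamini-Hochberg adjustment over all genes tested, with a threshold of 0.05. Alternatives used DESeq2 1.42.0, limma 3.58.1 (voom on counts, or log2(TPM + 1) and log2(TPM + 0.1)), other scalings and filters, no sex covariate, blocks and leaving out each library. The tests were checked on simulated data, and levels were summarised with Python 3.11.15, numpy 2.4.6 and pandas 2.3.3. The fits were run on all genes of each comparison.

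Donor and host libraries are paired by animal, per the labels; the deviations of same-animal libraries correlated at 0.238 to 0.674. Libraries collected on the same day, per the labels, correlated at 0.27 to 0.367 (host and control), 0.192 to 0.354 (donor and control) and 0.198 to 0.681 (stroma), and at -0.0648 to 0.0652 in the CD11b sort, which was not treated as paired. No 2 libraries of the same group agreed within sampling noise, and libraries of different groups were not compared in this way. Libraries of a group come from separate mice.

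The 10 genes and the lists of related and marker genes were chosen with earlier results of these data known. All 10 genes are described; of the other lists, counts and up to 4 genes with the smallest p are named, and the 5 genes of most similar pattern over the 22 CD45.1 and CD45.2 libraries, of which 1 is not reported here.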

Additional observations from a re-analysis of the deposited data

Results flagged for a closer look

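In groups of 4 to 8 libraries, the gap between the highest or lowest library and its nearest neighbour was set against the range of the group (Dixon's test) for each of the 10 genes in 5 groups. Of 50 sets of values 4 had an outlying library, where chance gives about 1 in 20. Of the 4, 3 came from 1 library, the host library of mouse N269. In it Lcn2 stood at 4939.5 CPM, where the 6 other host libraries held 1525.6 to 2903.4, Cd177 at 2242.5 CPM, against 648.3 to 1182.3, and Ltb4r1 at 200.9 CPM, against 100.9 to 136.7. The fourth was Cd177 in the stroma of control N283, at 589.6 CPM, where the 7 other control stroma libraries held 106.9 to 326.3.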

How the results depend on the processing

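In the host comparison the count of the 10 genes that passed was 0 with all libraries and 0 to 6 when 1 library was left out (6 without host N269, 1 without control N283), and 1 with DESeq2. With the replicate block, 2 passed in donor against control (block: day) and 2 in donor against host (block: animal); the day block left 0 in host, stroma and CD11b cells and changed no other call. All other alternatives gave 0. As shares of TPM in place of counts, the 10 genes took 4.67% in control, 3.85% in host, 4.19% in donor, 8.62% in CD11b control and 7.77% in CD11b transplanted libraries. Of 1140 values of single genes under the alternatives 1053 kept their direction and side of the threshold, 12 came to pass it, and 75 turned sign, 11 of these to values that round to 0, none of the 75 past the threshold; the cause was not tested. Of 20 ratios of levels between sorts 9, all of CD11b to CD45.1 cells, moved by more than the spread between mice when taken from CPM, to 0.80 to 1.79, all still above 0. In host cells Ltb4r1 turned to 0.01 with library totals alone, 0.03 with either TPM pseudocount and 0.06 with the day block, and Chil3 to 0.04 with that block; leaving out libraries gave -0.13 to 0.03 for Ltb4r1. In donor against control the day block gave 0.10 for Lcn2 and 0.13 for Chil3, and leaving out libraries gave -0.14 to 0.07 for Chil3, -0.03 to 0.21 for Ltf and -0.25 to 0.01 for Lcn2. In donor against host Retnlg turned to -0.01 with limma-voom and with the animal block and to -0.03 with either TPM pseudocount, with -0.14 to 0.20 for Retnlg, -0.09 to 0.26 for Mmp8, 0 to 0.23 for Chil3 and 0 to 0.32 for Padi4 when libraries were left out. In stroma Camp turned to -0.01 with library totals alone, and with the day block Camp and Ngp turned to values that round to 0. With limma-voom Camp stood there at -0.17, Ngp at -0.14, Mmp8 at -0.14, Padi4 at -0.08 and Retnlg at -0.09. On log2(TPM + 1) Camp stood at -0.25, Ngp and Mmp8 at -0.22, Chil3 at -0.05, Cd177 at -0.06, Padi4 at -0.20 and Retnlg at -0.17; on log2(TPM + 0.1) Cd177 stood at -0.07, Padi4 at -0.22, Ltb4r1 at -0.01 and the others as before. Leaving out stroma libraries gave -0.25 to 0.21 for Camp, -0.22 to 0.28 for Ngp, -0.14 to 0.34 for Mmp8, -0.13 to 0.43 for Padi4, -0.13 to 0.35 for Retnlg, -0.07 to 0.45 for Chil3 and -0.06 to 0.47 for Ltb4r1, lowest without transplanted N204 or N014. In CD11b cells it gave -0.03 to 0.07 for Ltb4r1 and -0.22 to 0.03 for Chil3, which rounds to 0 with either TPM pseudocount. Each gene had at least 339 counts in each library; how depth bears on the calls was not tested.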

Other observations

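Over the 15 stroma libraries, the 5 named genes that followed the mean standardized level of the 10 genes most closely, among 12584 genes compared (mean log2 CPM from 2 upwards), were Ncf4 (0.995), Hdc (0.991), Ppp1r3b (0.99), Pglyrp1 (0.99) and Itgb2l (0.989). Itgb2l, a beta integrin gene, was also among the closest in the 22 CD45.1 and CD45.2 libraries (0.98). Ncf4 encodes a subunit of the phagocyte NADPH oxidase, and Pglyrp1 a peptidoglycan-binding protein of neutrophil granules. These correlations are descriptions over libraries that share scaling, with no test.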
